A study of Mus musculus with 13 samples.

Results

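The genes described here are targets and regulators of ATF4, the transcription factor at the centre of the integrated stress response, together with the amino acid enzymes and transporters that this response controls. They were chosen by name, 35 genes in all, and 34 of them reached 1 FPKM in at least 3 of the 13 libraries, out of 34857 genes in the deposited tables (FPKM, fragments scaled to transcript length and library size). Vldlr, a lipoprotein receptor gene, was the member that did not, with 0.0192 to 0.214 FPKM. Poly(A) RNA came from Neuro2a, a mouse neuroblastoma line with neuron-like properties, after a simulated failure of cryostorage. Experimental vials of cells in 10% DMSO, a cryoprotectant, sat in a flask at 4 °C while its liquid nitrogen evaporated over 10 h, stayed there for 24 h, were refrozen in a freezer for 72 h and were then thawed at 37 °C. Control vials were frozen in the same DMSO and plated in the same way, but remained in normal cryostorage until then. RNA was taken from 4 experimental and 3 control libraries at passage 1, when surviving cells again divided fast, and from 3 and 3 libraries at passage 6, when they looked normal. All libraries come from 1 cell line, and the labels do not say whether replicates were separate vials or flasks, so p-values measure only the spread between these libraries, which may be technical.

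In the integrated stress response, kinases that sense unfolded protein, lack of amino acids, heme deficiency or viral RNA phosphorylate the initiation factor eIF2. Bulk translation then falls while ATF4 is translated more, so that Atf4 RNA is only part of what sets ATF4 activity. ATF4 pairs with C/EBP proteins at composite promoter elements and induces enzymes of serine, asparagine and proline synthesis, amino acid transporters, the death-associated factor CHOP (gene Ddit3), and feedback genes such as Trib3 and Ppp1r15a that restrain the response.

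The libraries carried the markers of a sympathetic neuroblastoma line, with 17 to 19 of 20 listed markers at 1 FPKM or more, such as Hand2 (58.8 to 114 FPKM) and Prph (284 to 499 FPKM). The neurofilament genes Nefl and Nefm reached 1 FPKM only in passage 6 experimental libraries 2 and 3, at 2.91 and 2.24 FPKM for Nefl and 1.54 and 1.22 FPKM for Nefm, and were at most 0.0341 FPKM in the other 11 libraries. Some libraries also carried transcripts of other tissues. Summed FPKM of 20 colon epithelium markers came to 217, 186, 2.37 and 86.4 in experimental libraries 1 to 4 and 521, 218 and 244 in controls at passage 1, where experimental library 3 had none of the 20 at 1 FPKM. At passage 6 the sums were 114, 3.90 and 3.69 in experimental libraries 1 to 3 and 122, 248 and 293 in controls. Experimental libraries 2 and 3 of passage 6 had 16 of 18 liver markers at 1 FPKM or more, with sums of 260.2 and 217 FPKM, against 1 of 18 in each other library. The same libraries had 12 and 11 of 14 brain and myelin markers at 1 FPKM or more, with sums of 87.9 and 70.7 FPKM, against 3 to 5 of 14 and 26.1 to 36.5 FPKM in each other library. Cartilage markers were low in experimental library 4 (8.69 FPKM) and control 1 (7.21 FPKM) of passage 1, while the rest of passage 1 lay at 33.3 to 51.9 FPKM. At passage 6 they summed to 18.5 to 20.8 FPKM in experimental libraries, with 3 of 14 markers at 1 FPKM or more in each, and to 36.8 to 62.2 FPKM in controls, with 8 to 12. Liver sums of 48.5 to 52.1 FPKM in passage 1 experimental libraries, against 19.3 to 22.6 FPKM in controls, rested on 1 marker, Ass1. Ass1 was also higher in experimental libraries at passage 6, at 14.9 ± 1.775 FPKM against 6.94 ± 1.07 FPKM in controls (mean ± SD, n = 3 and 3). Transcripts of the mitochondrial chromosome made up 12.3 to 14.7% of summed FPKM in experimental libraries and 14.5 to 14.8% in controls at passage 1, and 25.0 to 26.8% in experimental libraries and 27.1 to 27.4% in controls at passage 6. FPKM hold no read counts, so the depth behind each value is unknown.

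The members differed widely in level (FPKM, per length). At passage 1 Atf4, at 256 to 354 FPKM over the 7 libraries, and Slc7a5, the large neutral amino acid transporter gene, at 227 to 310.2 FPKM, were highest by median, and their ranges overlapped. The asparagine synthetase gene Asns followed at 186 to 250.3 FPKM. At passage 6 Slc7a5, at 464 to 655 FPKM over the 6 libraries, lay above its heavy chain partner Slc3a2, at 274 to 353 FPKM, and Atf4, at 151 to 197 FPKM, without overlap. Cbs, a transsulfuration enzyme gene, was the lowest by median at both passages, at 1.21 to 2.87 FPKM over the 13 libraries.

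Promoters of several members hold the core of the C/EBP-ATF response element, and those of the members that differed between the groups are shown first, so that their values below can be read beside the element. The search used TGATGNAA on both strands over the 300 bases from 250 before to 50 after the RefSeq start (GRCm38.p6). The narrower form TGATGCAA is contained in it, so matches to it are also matches to the wider form. Of 30 listed genes with an entry, 9 held the wider form (30%, Vldlr among them), against 4.51% of 27025 symbols, and 7 held the narrower form (23.3%), against 1.03%. The genes were chosen by name as targets and regulators of ATF4, so the higher share may follow from that choice. It is not a result of these libraries. In the stretches below, read 5′ to 3′ on the gene's strand, capitals mark the match, in Pycr1 and Asns as searched and in the others as its reverse complement. The stretches are chr1:191183376-191183503 (minus strand) for Atf3, chr2:119350992-119351116 (plus) for Chac1, chr2:152344028-152344057 (minus) for Trib3, chr7:126625562-126625591 (minus) for Nupr1, chr11:120643784-120643911 (minus) for Pycr1 and chr6:7693214-7693243 (minus) for Asns.
Atf3: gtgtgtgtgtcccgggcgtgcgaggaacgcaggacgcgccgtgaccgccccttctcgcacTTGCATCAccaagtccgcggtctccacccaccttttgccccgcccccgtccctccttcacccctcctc
Chac1: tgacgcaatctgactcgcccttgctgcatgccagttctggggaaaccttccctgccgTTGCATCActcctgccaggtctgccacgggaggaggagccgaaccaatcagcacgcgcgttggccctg
Trib3: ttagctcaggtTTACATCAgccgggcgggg
Nupr1: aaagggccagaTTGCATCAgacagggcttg
Pycr1: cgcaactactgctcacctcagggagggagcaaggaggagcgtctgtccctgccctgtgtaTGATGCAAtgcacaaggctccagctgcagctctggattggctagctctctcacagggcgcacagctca
Asns: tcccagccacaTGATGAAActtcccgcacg
The matches begin at position -110 relative to the start in Atf3 and Nupr1, -193 in Chac1, -103 in Pycr1, -23 in Asns and 15 in Trib3. Slc7a11 has 2 matches, at positions -66 and -47, and Slc1a4 has 1 at position -4; neither gene passed the test at a passage. Positions count from the start in the RefSeq promoter table, which for Slc7a11, Vldlr and several members without a match is not the RefSeq gene start (50443613 against 50499087 in Slc7a11, chromosome 3). Atf3, Chac1, Trib3, Nupr1 and Pycr1 fell at passage 6, and Asns and Pycr1 fell at passage 1, as described below. Genes with an entry but no match also fell. These were Atf4, Ddit3, Eif2ak4, Ppp1r15a and Ddit4 at passage 6, and Psph, Shmt2, Mthfd2, Stc2 and Atf5 at passage 1. Cth and Slc7a3, which fell at passage 1, have no entry. A match describes these letters and does not show binding.

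**Figure D1:**
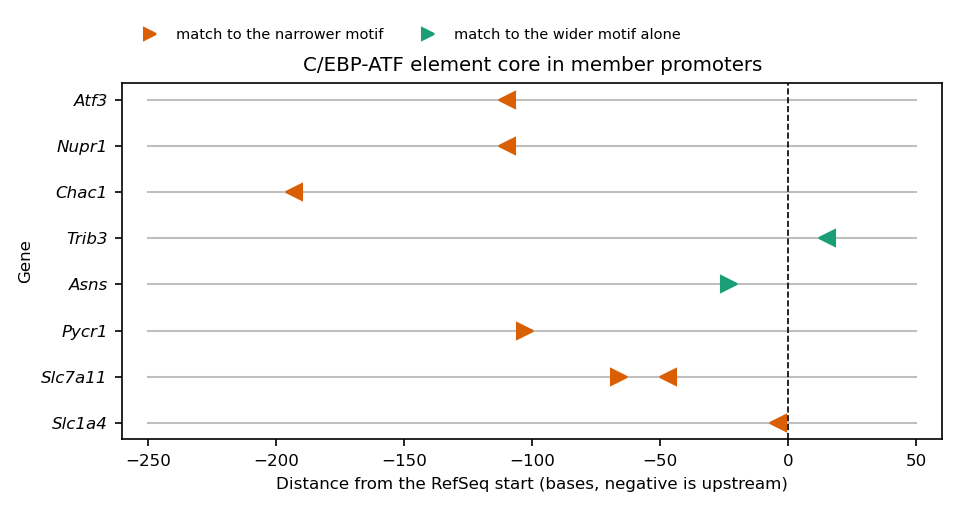
Matches to the C/EBP-ATF element core along the promoters of the 8 members above the FPKM threshold that hold one; the horizontal axis is the distance in bases from the start in the RefSeq promoter table, and arrowheads point right for matches on the gene's strand and left for the opposite strand. Orange marks the 6 genes with the narrower motif, and green marks Trib3 and Asns, which hold only the wider one.

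The first comparison asks how surviving cells differed from controls soon after they resumed growth. At passage 1, 4 of 8 serine, one-carbon and transsulfuration enzyme genes and 2 of 3 asparagine and proline enzyme genes fell in experimental libraries, while for the CHOP arm the 4 experimental libraries lay on both sides of the controls. Of the 34 members, 11 changed (32.4%), 2 higher and 9 lower (limma, adjusted p under 0.05). Of all 12469 genes tested, 30.4% changed, 11.5% higher and 18.9% lower, so the share of members called was near that of all genes. The groups did not overlap for 3 members that were higher (8.82%) and 10 that were lower (29.4%), against 15.8% and 26.9% of all genes. Over all genes 42.6% had separate groups, so separate groups for a single member are common in these data. RNA was taken from whole cultures, so fewer cells of a type and less RNA per cell cannot be told apart. The median log2 change of log2(FPKM + 1) was -0.11 over the members and -0.05 over all genes tested.

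The enzyme genes Cth, Psph, Shmt2 and Mthfd2 fell at passage 1. Cth, the cystathionine gamma-lyase gene that makes cysteine (ENSMUSG00000028179, chromosome 3, 157894248 to 157925077, minus strand, GRCm38), was at 8.67, 7.49, 11.5 and 11.1 FPKM in experimental libraries 1 to 4, against 17.6, 16.3 and 16.8 FPKM in controls. Every experimental library lay below every control, and libraries 1 and 2 were lowest. The gene was 1.7-fold lower (fitted fold, including the added 1 FPKM; log2 change -0.76, SE 0.13, adjusted p = 0.0045). Psph, the phosphatase that completes serine synthesis, was at 14.6, 14.2, 16.8 and 17.7 FPKM in experimental libraries and 20.8, 22.0 and 21.8 FPKM in controls (log2 change -0.43, SE 0.08, adjusted p = 0.00643). Shmt2, which moves a one-carbon unit from serine to folate in mitochondria, was at 92.8, 93.4, 104 and 106 FPKM in experimental libraries, against 118, 120.3 and 123 FPKM in controls (log2 change -0.28, SE 0.059, adjusted p = 0.00965). Mthfd2, the next mitochondrial folate enzyme, was at 79.4, 81.0, 82.6 and 86.5 FPKM in experimental libraries and 93.4, 94.5 and 93.4 FPKM in controls (log2 change -0.19, SE 0.043, adjusted p = 0.0139). In none of these 4 genes did the groups overlap. Phgdh, the first enzyme of serine synthesis, did not pass the test, at 157, 159, 176 and 182 FPKM in experimental libraries against 154, 153 and 155 FPKM in controls (adjusted p = 0.138), and Psat1, the second, had a log2 change of -0.15 (adjusted p = 0.0929). The folate dehydrogenase gene Aldh1l2 and Cbs, the enzyme before Cth, also missed the threshold (adjusted p = 0.142 and 0.553).

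Of the asparagine and proline enzyme genes, Asns and Pycr1 fell. Asns (ENSMUSG00000029752, chromosome 6, 7675169 to 7693254, minus strand) was at 188, 186, 225 and 224 FPKM in experimental libraries, against 247, 250.3 and 249 FPKM in controls (log2 change -0.28, SE 0.078, adjusted p = 0.029). The proline synthesis gene Pycr1 was at 5.75, 4.83, 9.18 and 7.86 FPKM in experimental libraries and 10.5, 10.2 and 11.1 FPKM in controls (log2 change -0.58, SE 0.18, adjusted p = 0.0382). All 4 experimental libraries were below all controls for both genes, and the distance to the controls was largest in libraries 1 and 2. Aldh18a1, which makes the proline precursor, was not called (log2 change -0.11, adjusted p = 0.486).

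Of 8 amino acid transporter genes, 1 fell and 1 rose at passage 1. Slc7a3, a transporter of cationic amino acids such as arginine (ENSMUSG00000031297, chromosome X, 101079210 to 101086020, minus strand), was at 10.5, 11.6, 16.5 and 16.2 FPKM in experimental libraries, against 21.7, 23.3 and 22.8 FPKM in controls, 1.63-fold lower (log2 change -0.70, SE 0.15, adjusted p = 0.0103). Slc38a2, which brings small neutral amino acids into the cell, was at 55.4, 49.3, 71.0 and 71.1 FPKM in experimental libraries and 42.4, 44.1 and 44.2 FPKM in controls, 1.39-fold higher (log2 change 0.48, SE 0.13, adjusted p = 0.0242). Both pairs of groups were separate, with Slc7a3 below and Slc38a2 above the controls in each experimental library. Slc7a5 and Slc3a2, which form one exchanger, had log2 changes of 0.07 and 0.03 (adjusted p = 0.629 and 0.875). The cystine transporter gene Slc7a11, the arginine transporter gene Slc7a1, the glutamine transporter gene Slc1a5 and the serine transporter gene Slc1a4 lay between -0.14 and 0.14, with adjusted p of 0.292 or more.

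The transcription factor genes Cebpb and Atf5 and the effector gene Stc2 passed the test at passage 1. Cebpb, a C/EBP factor that can pair with ATF4 (ENSMUSG00000056501, chromosome 2, 167688915 to 167690418, plus strand), was at 22.2, 19.99, 30.5 and 26.3 FPKM in experimental libraries, against 16.6, 16.1 and 18.5 FPKM in controls (log2 change 0.50, SE 0.13, adjusted p = 0.024). Atf5, an ATF4-related factor whose RNA is translated under the same control, was at 42.3, 39.5, 44.2 and 51.4 FPKM in experimental libraries and 54.7, 53.5 and 53.9 FPKM in controls (log2 change -0.29, SE 0.081, adjusted p = 0.0315). Stc2, a stress-induced secreted glycoprotein gene, was at 2.53, 2.57, 3.12 and 2.55 FPKM in experimental libraries, against 4.67, 4.80 and 4.68 FPKM in controls, 1.55-fold lower (log2 change -0.64, SE 0.07, adjusted p = 0.000739). The groups did not overlap for any of them, Cebpb being above and Atf5 and Stc2 below the controls.

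The CHOP arm did not pass the test at passage 1, and its experimental libraries lay on both sides of the controls. Ddit3 (ENSMUSG00000025408, chromosome 10, 127290774 to 127296288, plus strand) was at 35.1, 27.5, 53.4 and 51.9 FPKM in experimental libraries 1 to 4, against 39.6, 39.4 and 41.4 FPKM in controls (adjusted p = 0.971). Chac1, which degrades glutathione downstream of ATF4 and CHOP, was at 27.6, 19.5, 38.3 and 40.6 FPKM in experimental libraries and 33.0, 31.7 and 33.1 FPKM in controls (adjusted p = 0.757). Trib3, a pseudokinase that restrains the response, was at 34.1, 27.7, 59.99 and 56.0 FPKM in experimental libraries, against 52.8, 54.2 and 47.2 FPKM in controls (adjusted p = 0.438). In these 3 genes libraries 1 and 2 lay below, and libraries 3 and 4 above, every control. Atf3, a stress-induced partner of ATF4, had the same order, at 16.6, 12.4, 35.2 and 35.1 FPKM in experimental libraries and 26.7, 26.4 and 26.1 FPKM in controls (adjusted p = 0.66). Ddit4, an inhibitor of mTORC1, was at 63.7, 51.4, 118 and 97.3 FPKM in experimental libraries, against 85.5, 84.2 and 89.6 FPKM in controls (adjusted p = 0.712), again in that order. Atf4 itself was at 292, 265, 339.8 and 354 FPKM in experimental libraries and 271, 274 and 256 FPKM in controls (adjusted p = 0.124), with library 2 inside the control range and the other 3 above it. Ppp1r15a, the GADD34 gene that directs dephosphorylation of eIF2, was at 35.6, 31.1, 51.8 and 44.3 FPKM in experimental libraries, against 30.4, 28.9 and 32.3 FPKM in controls (adjusted p = 0.1), with library 2 in the control range. The mTORC1 inhibitor gene Sesn2 had a log2 change of 0.28 (adjusted p = 0.173), and the stress cofactor gene Nupr1 -0.25 (adjusted p = 0.118). Of the eIF2 kinase genes, Eif2ak3 (PERK) had a log2 change of 0.08 and Eif2ak4 (GCN2) -0.10 (adjusted p = 0.364 and 0.285).

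This order of the experimental libraries ran through nearly the whole set. Libraries 1 and 2 held the lowest values of the 4 in 33 of the 34 members (97.1%), against 25.5% of all genes tested, with Stc2 as the exception. Library 1 was below every control in 24 members and above every control in 8, and library 2 in 27 and 3. For libraries 3 and 4 the members below every control numbered 11 and 12, and those above every control 22 and 19. Over all tested genes these shares were alike in the 4 libraries, 46.1% to 50.1% below and 32.2% to 33.2% above. Median log2 differences of the members from the control mean were -0.24, -0.33, 0.16 and 0.12 in libraries 1 to 4, and -0.04, -0.05, -0.06 and -0.05 over all genes. The order was noticed in these values and has no test, and the labels name no difference between the 4 libraries. The mitochondrial share was 14.7, 14.0, 12.3 and 13.6% in libraries 1 to 4, and the colon marker sums given above were 217 and 186 FPKM in libraries 1 and 2, and 2.37 and 86.4 FPKM in libraries 3 and 4. Their part in the order was not tested. With the colon sum as a covariate the median change of the members was -0.22, and that of Ddit3 was -0.25 (adjusted p = 0.359). Without experimental library 2 the median change of the members was 0.01, and 6 members were called higher. In that fit 32.8% of all genes were called higher or lower, against 30.4% with all libraries.

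**Figure D2:**
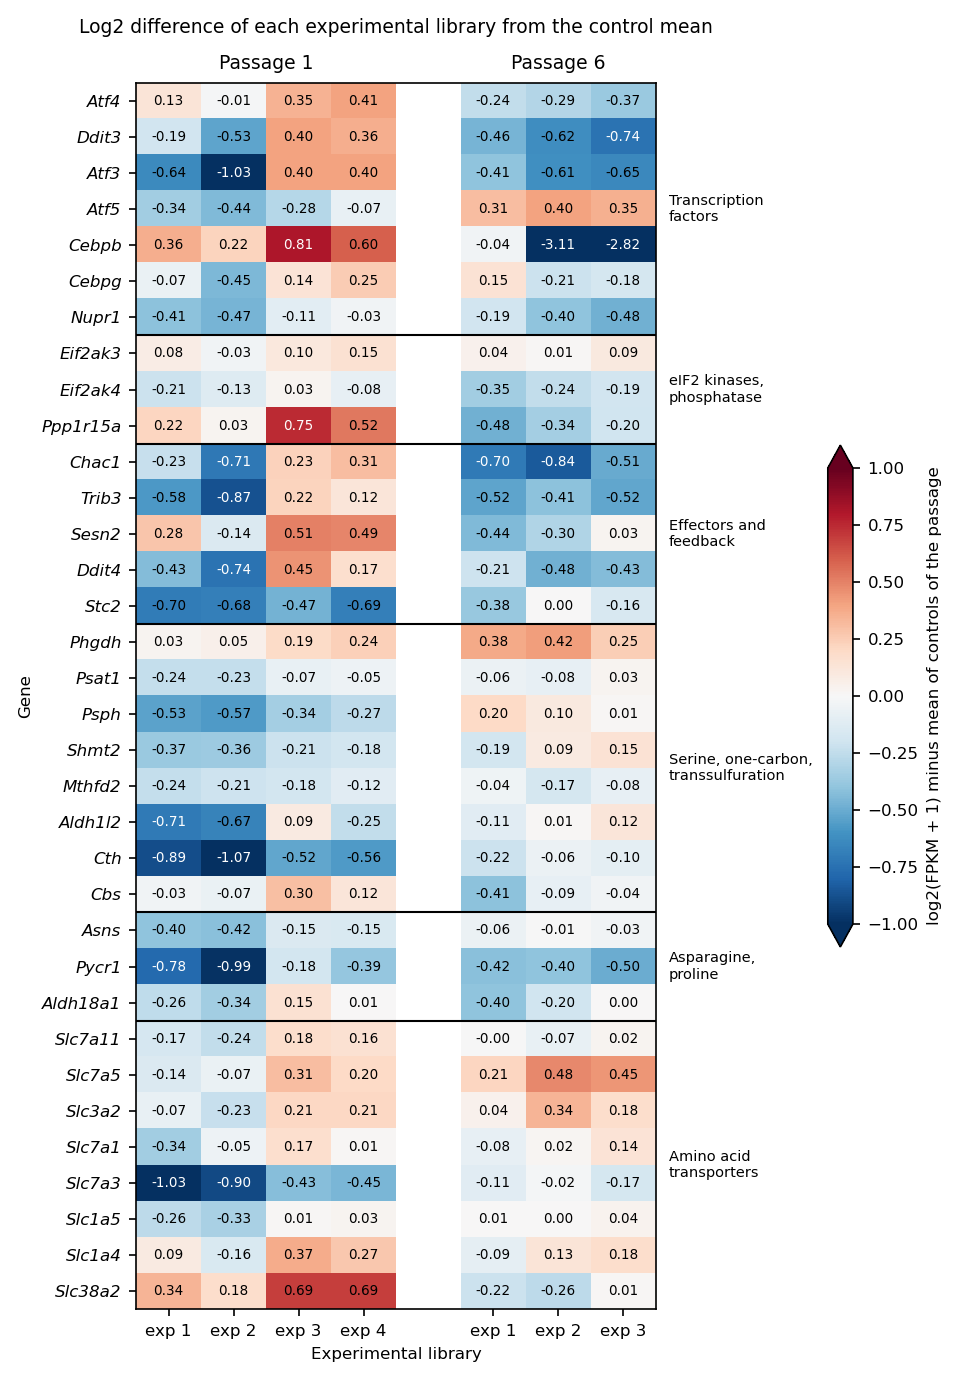
Log2 difference of each experimental library from the mean of the controls of its passage, on the log2(FPKM + 1) scale, for the 34 members in rows grouped by role; columns are experimental libraries 1 to 4 of passage 1 and 1 to 3 of passage 6, and colours are capped at 1 in either direction. At passage 1 the columns of libraries 1 and 2 are mostly blue and those of 3 and 4 mostly red in the upper rows, while at passage 6 the rows of Ddit3, Atf3, Chac1 and Trib3 are blue in all 3 columns.

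The calls of Stc2, Psph, Shmt2, Cth and Slc7a3 held in each of the 7 fits that left out 1 passage 1 library and in every other setting that tested them. Stc2 was not tested with a minimum of 5 FPKM. Those of Atf5, Cebpb, Mthfd2, Asns, Pycr1 and Slc38a2 ended in at least 3 of the 7. Leaving out any 1 control reduced the members called lower to 5. Without control 1, 2 or 3, 16.99, 16.71 and 17.02% of all genes were called, against 30.4% with all libraries. The loss of calls in these fits was therefore not particular to the members. When only libraries with cartilage transcripts were fitted, experimental libraries 1 to 3 against controls 2 and 3, 6 members were called lower. In that fit 8.02% of all genes were called, and Cebpb and Slc38a2 had log2 changes of 0.45 and 0.38 (adjusted p = 0.162 and 0.153).

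The later comparison addresses how far experimental and control cultures still differed at passage 6. Atf4 and the CHOP arm genes Ddit3, Chac1 and Trib3 fell in experimental libraries, while Atf5, the exchanger gene Slc7a5 and the serine enzyme gene Phgdh rose. Of the 34 members, 13 changed (38.2%), 3 higher and 10 lower, against 19.8% of 12458 genes tested, 8.98% higher and 10.8% lower. The groups did not overlap for 4 members that were higher (11.8%) and 11 that were lower (32.35%), against 17.4% and 24.3% of all genes. Over all genes 41.7% had separate groups, so separate groups for a single member are common in these data. The median log2 change was -0.11 over the members and -0.04 over all genes. Of the 15 regulator and effector genes, 9 fell, and 1 of the 19 enzyme and transporter genes did. The mitochondrial and cartilage values of passage 6 given above were also lower in the experimental libraries, and their part in these changes was not tested.

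Atf4 (ENSMUSG00000042406, chromosome 15, 80255184 to 80257541, plus strand) was at 165, 159.9 and 151 FPKM in experimental libraries 1 to 3, against 195, 195 and 197 FPKM in controls (log2 change -0.30, SE 0.049, adjusted p = 0.0086). Ddit3 was at 18.8, 16.7 and 15.3 FPKM in experimental libraries and 25.8, 28.5 and 24.6 FPKM in controls, 1.53-fold lower (log2 change -0.61, SE 0.085, adjusted p = 0.00524). For Atf3 the values were 10.3, 8.80 and 8.58 FPKM in experimental libraries and 14.8, 13.3 and 13.8 FPKM in controls (log2 change -0.55, SE 0.078, adjusted p = 0.00536). The groups were separate for these factors, and all experimental libraries were low. Nupr1 was at 11.3, 9.63 and 9.07 FPKM in experimental libraries, against 11.9, 13.7 and 13.6 FPKM in controls (log2 change -0.36, SE 0.091, adjusted p = 0.0348), with library 1 just below the lowest control. Atf5 went the other way, at 33.6, 35.8 and 34.6 FPKM in experimental libraries and 27.1, 26.7 and 26.8 FPKM in controls, 1.28-fold higher (log2 change 0.36, SE 0.045, adjusted p = 0.00397), and each experimental library was above each control. Cebpg, a further C/EBP partner of ATF4, was not called (log2 change -0.08, adjusted p = 0.622).

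Among the effectors, Chac1 (ENSMUSG00000027313, chromosome 2, 119351229 to 119354381, plus strand) was at 14.5, 13.1 and 16.8 FPKM in experimental libraries, against 23.3, 24.4 and 25.2 FPKM in controls, 1.61-fold lower (log2 change -0.68, SE 0.087, adjusted p = 0.00415). Trib3 (ENSMUSG00000032715, chromosome 2, 152337422 to 152344032, minus strand) was at 26.8, 29.1 and 26.9 FPKM in experimental libraries and 39.0, 38.4 and 39.3 FPKM in controls, 1.4-fold lower (log2 change -0.48, SE 0.049, adjusted p = 0.00227). Ddit4 was at 36.7, 30.2 and 31.2 FPKM in experimental libraries, against 41.4, 42.6 and 43.5 FPKM in controls (log2 change -0.37, SE 0.075, adjusted p = 0.0169). All 3 experimental libraries were low for these genes, with no overlap. Ppp1r15a was at 26.9, 29.8 and 32.9 FPKM in experimental libraries and 39.1, 37.5 and 37.1 FPKM in controls (log2 change -0.34, SE 0.075, adjusted p = 0.0224). Eif2ak4, the kinase that senses uncharged tRNA, was at 3.08, 3.39 and 3.54 FPKM in experimental libraries and 4.06, 4.29 and 4.23 FPKM in controls (log2 change -0.26, SE 0.065, adjusted p = 0.0318). Neither gene had overlapping groups. Eif2ak3, the kinase of the endoplasmic reticulum, was not called (log2 change 0.05, adjusted p = 0.535), and neither were Sesn2 and Stc2 (adjusted p = 0.177 and 0.234).

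**Figure D3:**
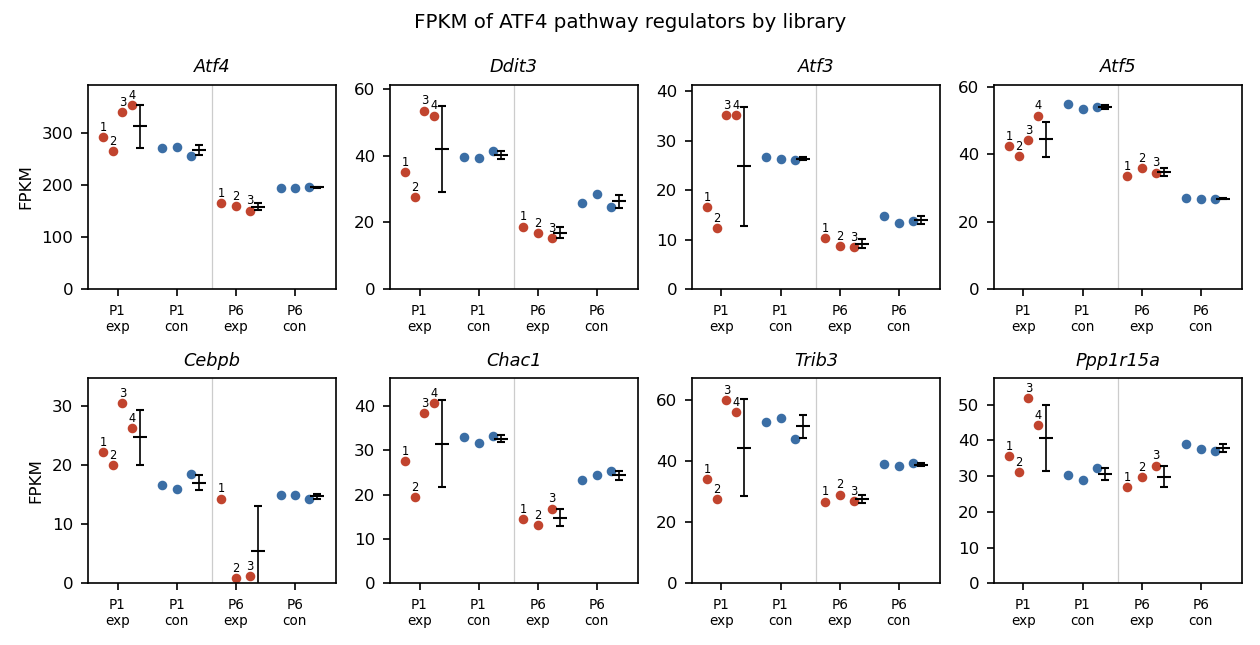
FPKM of 8 regulator and effector genes in every library, with passages 1 (P1) and 6 (P6) side by side, experimental libraries (exp, red, numbered) left of controls (con, blue) and black bars for the mean ± SD; each vertical axis starts at 0. Ddit3, Atf3, Chac1 and Trib3 are lower in all 3 passage 6 experimental libraries and scatter around the controls at passage 1, and Cebpb is near 1 FPKM in passage 6 experimental libraries 2 and 3.

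Cebpb divided the passage 6 experimental libraries. It was at 14.4, 0.821 and 1.23 FPKM in experimental libraries 1 to 3, against 15.0, 14.9 and 14.3 FPKM in controls. Library 1 was within the control range, and libraries 2 and 3, which carried the liver transcripts, were far below it. The gene was not called (log2 change -1.99, SE 0.73, adjusted p = 0.0975). A fit without library 1 keeps only the low libraries 2 and 3. Its adjusted p of 6.56e-05 (limma) therefore follows from the split and is no separate evidence. Libraries 2 and 3 also had the colon marker sums of 3.90 and 3.69 FPKM and the liver and brain marker sums given above, whose part in the Cebpb values was not tested. Tmem189, which overlaps Cebpb on the opposite strand, was at 38.3, 38.9 and 40.4 FPKM in passage 6 experimental libraries and 26.3, 26.5 and 25.6 FPKM in controls. At passage 1, where Cebpb rose, Tmem189 was at 28.5, 27.6, 26.3 and 25.8 FPKM in experimental libraries and 19.95, 20.7 and 18.1 FPKM in controls. It was above every control in all experimental libraries of both passages.

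Enzymes and transporters were mostly not called at passage 6. Phgdh (ENSMUSG00000053398, chromosome 3, 98313170 to 98339990, minus strand) was at 136, 139 and 124 FPKM in experimental libraries, against 108, 102 and 102 FPKM in controls, 1.27-fold higher (log2 change 0.35, SE 0.059, adjusted p = 0.01). Slc7a5 (ENSMUSG00000040010, chromosome 8, 121881150 to 121907694, minus strand) was at 544, 655 and 638 FPKM in experimental libraries and 464, 475 and 466 FPKM in controls, 1.3-fold higher (log2 change 0.38, SE 0.076, adjusted p = 0.0165). Both genes were above the controls in every experimental library, Slc7a5 least in library 1. Its partner Slc3a2 was at 286, 353 and 314 FPKM in experimental libraries and 283, 277 and 274 FPKM in controls and did not pass the test (adjusted p = 0.129). Pycr1 was at 4.17, 4.22 and 3.89 FPKM in experimental libraries, against 5.73, 5.80 and 6.21 FPKM in controls (log2 change -0.44, SE 0.059, adjusted p = 0.00479), and was the only member called lower at both passages. Cth, Asns and Slc7a3, which fell at passage 1, were not called at passage 6. Cth was at 7.31, 8.28 and 8.02 FPKM in experimental libraries and 8.72, 8.15 and 9.14 FPKM in controls (adjusted p = 0.218). Asns was at 148, 153 and 151 FPKM in experimental libraries, against 153, 154 and 154 FPKM in controls (adjusted p = 0.616), and Slc7a3 at 38.4, 40.9 and 36.7 FPKM in experimental libraries, against 42.1, 40.6 and 42.0 FPKM in controls (adjusted p = 0.205). The groups overlapped for Cth, Asns and Slc7a3, and for Asns they lay within a few FPKM of each other. Psph, Psat1, Shmt2, Mthfd2, Aldh1l2, Cbs and Aldh18a1 had log2 changes between -0.20 and 0.10, with adjusted p of 0.18 or more. Slc7a11, Slc7a1, Slc1a5, Slc1a4 and Slc38a2 lay between -0.16 and 0.07, with adjusted p of 0.175 or more.

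**Figure D4:**
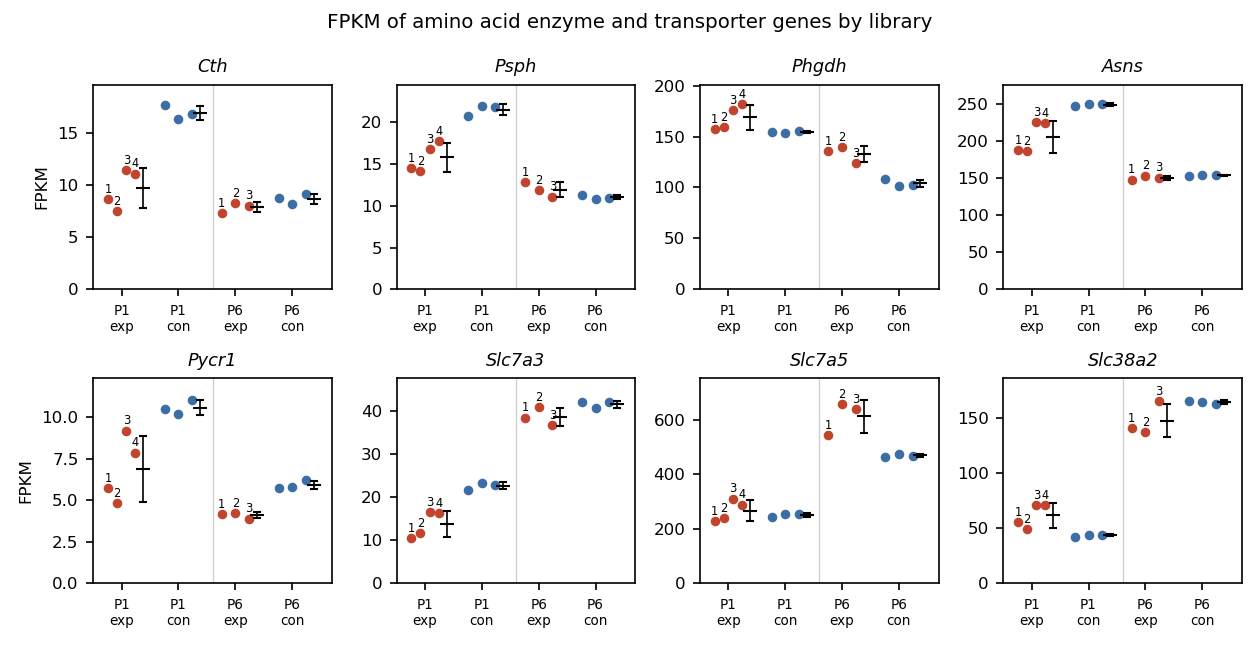
FPKM of 8 amino acid enzyme and transporter genes in every library, with passages 1 (P1) and 6 (P6) side by side, experimental libraries (exp, red, numbered) left of controls (con, blue) and black bars for the mean ± SD; each vertical axis starts at 0. Cth, Psph, Asns, Pycr1 and Slc7a3 lie below the controls in all 4 passage 1 experimental libraries, and Phgdh and Slc7a5 lie above them in all 3 at passage 6.

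The passage 6 calls of Ddit3, Atf3, Atf5, Chac1, Trib3 and Pycr1 held in each of the 6 fits that left out 1 library, and those of Nupr1, Eif2ak4, Ppp1r15a, Ddit4 and Slc7a5 ended in 4 or 5 of them, and those of Atf4 and Phgdh in 2. A fit without experimental libraries 2 and 3 leaves library 1 alone. It assumes that library 1 varies like the controls, so only log2 changes are given. Those in library 1 were -0.46 for Ddit3, -0.70 for Chac1 and -0.52 for Trib3. The colon sums of passage 6 were also lower in every experimental library. With the colon sum as a covariate 8.20% of all genes were called, against 19.8% without it. Among the members 1 was then called higher, Atf5, and 6 lower. Of these, Chac1, Trib3, Ppp1r15a and Pycr1 were also called without the covariate, and Stc2 and Aldh18a1 were not. The calls of Atf4, Ddit3, Atf3, Phgdh and Slc7a5 ended (adjusted p = 0.0559, 0.0526, 0.0534, 0.0509 and 0.117), as did those of Nupr1, Eif2ak4 and Ddit4. In 1 fit over both passages those of Atf3, Trib3, Pycr1, Ppp1r15a and Ddit4 ended (adjusted p = 0.203, 0.133, 0.0591, 0.109 and 0.258). Those of Atf5 and Chac1 held in every setting run.

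The 12 members called at neither passage also had experimental libraries 1 and 2 lowest of the 4 at passage 1. Cbs and Slc3a2 are given above. Over the 13 libraries Cebpg was at 3.93 to 8.10 FPKM, Eif2ak3 at 5.47 to 11.6 FPKM and Sesn2 at 15.1 to 25.0 FPKM. The enzyme genes Psat1, Aldh1l2 and Aldh18a1 were at 59.9 to 104, 8.09 to 14.8 and 27.3 to 49.3 FPKM. Of the transporter genes, Slc7a11 was at 7.08 to 12.6 FPKM, Slc7a1 at 21.6 to 67.3 FPKM, Slc1a5 at 56.6 to 147 FPKM and Slc1a4 at 25.3 to 75.2 FPKM. Sesn2 gives an example of the order, at 21.2, 15.6, 25.0 and 24.7 FPKM in passage 1 experimental libraries 1 to 4, against 17.6, 17.3 and 17.05 FPKM in controls, and Aldh1l2 another, at 8.09, 8.34, 14.8 and 11.5 FPKM in experimental libraries and 13.6, 14.0 and 13.9 FPKM in controls. The log2 change of Cebpg at passage 1 was -0.03 (adjusted p = 0.895).

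The third comparison asks whether the change between the groups itself differed between the passages. It used only changes within a passage, since the passages were deposited as separate tables that may be scaled apart. Of the 34 members, 8 differed (23.5%), 5 with a higher change at passage 6 and 3 with a lower one, against 14.7% of 13019 genes tested, 8.46% with a higher and 6.27% with a lower change. Atf5 had the largest called positive difference and turned from lower at passage 1 to higher at passage 6 (difference in log2 change 0.64, SE 0.10, adjusted p = 0.00217). The differences were 0.64 for Cth, 0.60 for Slc7a3, 0.53 for Psph and 0.46 for Stc2 (adjusted p = 0.0231, 0.0435, 0.00729 and 0.0277), all of which had fallen at passage 1 and were not called at passage 6. There Psph was at 12.8, 11.9 and 11.1 FPKM in experimental libraries, against 11.3, 10.8 and 10.97 FPKM in controls, and Stc2 at 5.46, 7.40 and 6.49 FPKM in experimental libraries, against 7.84, 7.35 and 7.01 FPKM in controls, both with overlap. In the other direction they were -0.72 for Ppp1r15a, -0.63 for Slc38a2 and -0.52 for Atf4 (adjusted p = 0.0302, 0.0242 and 0.0153). Slc38a2 was at 141, 137 and 165 FPKM in passage 6 experimental libraries and 166, 164 and 163 FPKM in controls. For Ddit3, Chac1 and Trib3 the differences of -0.62, -0.58 and -0.21 did not pass the test (adjusted p = 0.134, 0.176 and 0.687), nor did that of Cebpb, -2.49 (adjusted p = 0.0503). The calls of Atf4, Atf5 and Psph held in each of the 13 fits that left out 1 library, and the others ended in 4 to 10 of them. Those of Atf5 and Psph held in every other setting too, while that of Atf4 ended without a filter, with the replicate block and without passage 6 experimental libraries 2 and 3.

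**Figure D5:**
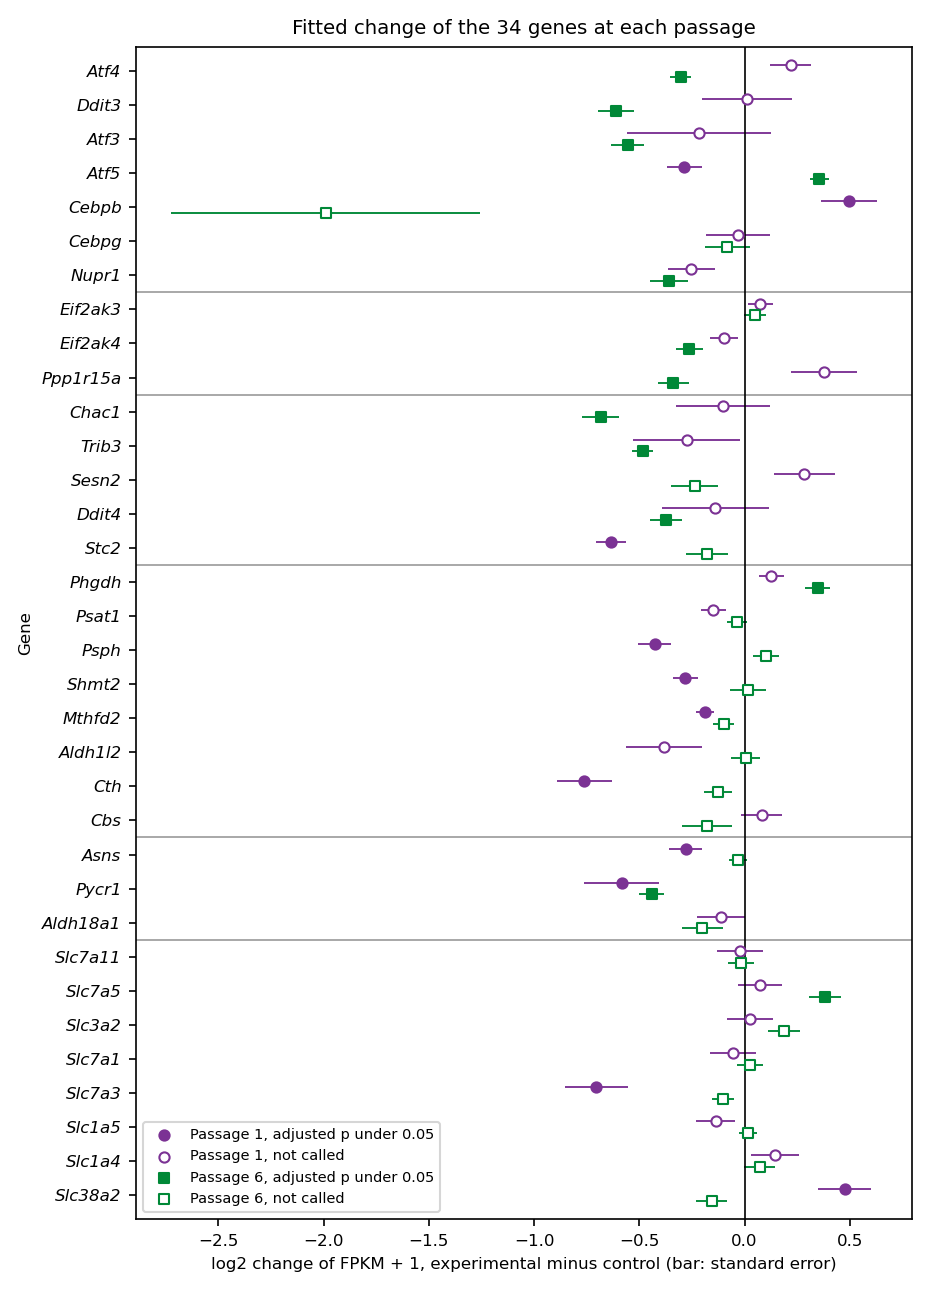
Fitted log2 change of FPKM + 1, experimental minus control, for the 34 members, with bars for the standard error; circles are passage 1 and squares passage 6, filled where the adjusted p is under 0.05. Filled squares left of 0 lie mostly among the regulators and effectors at the top, with that of Pycr1 below. Filled circles left of 0 lie mostly among the enzymes and Slc7a3 below, with those of Atf5 and Stc2 at the top.

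Other genes of the pathway, listed without the members, were called in both directions. Their counts are to be read against all genes tested, of which 11.5% were called higher and 18.9% lower at passage 1, and 8.98% higher and 10.8% lower at passage 6. Of 20 cytosolic aminoacyl-tRNA synthetase genes, which charge tRNAs and include described ATF4 targets, 8 fell at passage 1 (40%), with a median log2 change of -0.17. The leucyl enzyme gene Lars was at 36.4 ± 1.70 FPKM in experimental and 51.8 ± 1.19 FPKM in control libraries (mean ± SD, n = 4 and 3). The tryptophanyl enzyme gene Wars was at 41.8 ± 3.36 FPKM in experimental and 55.6 ± 1.56 FPKM in control libraries. The asparaginyl enzyme gene Nars was at 91.8 ± 7.48 FPKM in experimental and 113 ± 0.897 FPKM in control libraries. At passage 6, 2 rose and 3 fell (median -0.03), with the valyl enzyme gene Vars higher and Lars and Nars again lower. Vars was at 149 ± 10.3 FPKM in experimental and 118 ± 4.37 FPKM in control libraries (mean ± SD, n = 3 and 3). Lars was at 29.9 ± 0.668 FPKM in experimental and 36.8 ± 1.03 FPKM in control libraries, and Nars at 58.3 ± 1.12 FPKM in experimental and 68.1 ± 0.887 FPKM in control libraries. Of 18 further described ATF4 targets tested, 3 fell at passage 1 (16.7%, near the share of all genes; median -0.05), namely Pck2, Mthfd1l and Xpot. The mitochondrial PEP carboxykinase gene Pck2 was at 10.1 ± 2.19 FPKM in experimental and 14.2 ± 0.345 FPKM in control libraries. The formate-producing folate enzyme gene Mthfd1l was at 37.1 ± 0.852 FPKM in experimental and 45.0 ± 0.66 FPKM in control libraries, and the tRNA exporter gene Xpot at 54.8 ± 5.67 FPKM in experimental and 66.1 ± 0.41 FPKM in control libraries. At passage 6, 3 rose and 2 fell (median -0.06), Pck2 and Vegfa being the lower ones. Pck2 was at 12.9 ± 0.801 FPKM in experimental and 17.4 ± 0.36 FPKM in control libraries. The glutamine transporter gene Slc38a1 was at 43.8 ± 1.88 FPKM in experimental and 36.5 ± 0.672 FPKM in control libraries, and the angiogenic factor gene Vegfa at 38.4 ± 2.69 FPKM in experimental and 45.4 ± 1.21 FPKM in control libraries.

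Of 14 genes of the eIF2 machinery, 1 rose and 3 fell at passage 1 (28.6% called, against 30.4% of all genes; median log2 change -0.09). The constitutive eIF2 phosphatase partner Ppp1r15b rose, at 35.1 ± 4.16 FPKM in experimental and 22.8 ± 0.326 FPKM in control libraries (mean ± SD, n = 4 and 3). Among those that fell, Dele1, which relays mitochondrial stress to an eIF2 kinase, was at 11.1 ± 0.644 FPKM in experimental and 15.1 ± 0.184 FPKM in control libraries, and the eIF2B subunit gene Eif2b4 at 19.1 ± 2.23 FPKM in experimental and 24.0 ± 0.697 FPKM in control libraries. At passage 6, 1 rose and 1 fell (14.3% called, against 19.8% of all genes; median -0.03). The double-stranded RNA sensor gene Eif2ak2 was at 3.29 ± 0.156 FPKM in experimental and 4.21 ± 0.131 FPKM in control libraries (mean ± SD, n = 3 and 3), and the eIF2B subunit gene Eif2b5 at 31.4 ± 1.66 FPKM in experimental and 26.8 ± 0.589 FPKM in control libraries. Of 13 other folate and serine genes tested, 1 rose and 4 fell at passage 1 (38.5%, median -0.07). The mitochondrial serine transporter gene Sfxn1 was at 6.06 ± 0.354 FPKM in experimental and 9.28 ± 0.228 FPKM in control libraries. The glycine decarboxylase gene Gldc, the one that rose, was at 5.31 ± 0.0944 FPKM in experimental and 3.80 ± 0.316 FPKM in control libraries, and the cytosolic enzyme gene Shmt1 at 12.6 ± 1.39 FPKM in experimental and 15.8 ± 0.621 FPKM in control libraries. At passage 6 Gldc was again called higher, at 6.44 ± 0.513 FPKM in experimental and 4.73 ± 0.437 FPKM in control libraries. Of 13 amino acid sensing genes of mTORC1, 1 changed at each passage (7.69%), under the 30.4% and 19.8% of all genes. The arginine sensor gene Castor1 was at 3.15 ± 1.03 FPKM in experimental and 1.14 ± 0.188 FPKM in control libraries at passage 1, and the sestrin gene Sesn1 at 5.39 ± 0.201 FPKM in experimental and 6.83 ± 0.525 FPKM in control libraries at passage 6. Of 14 genes of the ATF6 and IRE1 arms of the unfolded protein response, 1 rose and 2 fell at passage 1 (21.4%, median -0.07) and 2 rose at passage 6 (14.3%, median 0.00). The IRE1 gene Ern1 was at 4.83 ± 0.531 FPKM in experimental and 6.45 ± 0.229 FPKM in control libraries and the chaperone cofactor gene Sdf2l1 at 29.8 ± 2.23 FPKM in experimental and 35.9 ± 0.89 FPKM in control libraries at passage 1. Edem1, of endoplasmic reticulum-associated degradation, rose at both passages. It was at 18.3 ± 1.42 FPKM in experimental and 15.8 ± 0.0789 FPKM in control libraries at passage 1, and at 25.0 ± 0.996 FPKM in experimental and 20.4 ± 0.525 FPKM in control libraries at passage 6. The chaperone partner gene Dnajb11 was at 101 ± 6.49 FPKM in experimental and 85.5 ± 2.38 FPKM in control libraries at passage 6.

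Some members overlap another gene on the opposite strand, and the counting is not stated to use strand, so reads of the pairs could be shared. Ddit3 overlaps the methionyl-tRNA synthetase gene Mars, which was at 70.0, 70.9, 70.3 and 70.7 FPKM in passage 1 experimental libraries and 87.9, 84.7 and 86.2 FPKM in controls. At passage 6, where Ddit3 fell, Mars was at 73.1, 82.9 and 75.8 FPKM in experimental libraries and 78.6, 80.1 and 77.4 FPKM in controls. Psph overlaps the chaperonin gene Cct6a, at 142, 157, 125 and 143 FPKM in passage 1 experimental libraries and 149, 149 and 150.1 FPKM in controls. Atf5 overlaps the nuclear pore gene Nup62, at 57.2, 55.3, 58.9 and 62.8 FPKM in passage 1 experimental libraries and 46.9, 48.0 and 46.1 FPKM in controls. Its passage 6 values were 37.6, 38.7 and 41.5 FPKM in experimental libraries and 42.3, 41.4 and 42.4 FPKM in controls. At passage 1 every experimental library was below the controls for Mars and above them for Nup62, while Cct6a lay on both sides. At passage 6 Mars lay on both sides of its controls, and Nup62 was below them in libraries 1 and 2. Nup62 lay above its controls where Atf5 fell and mostly below them where Atf5 rose. A second Ensembl identifier carries the name Ddit3 and was at most 0.0342 FPKM.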

How the data were processed

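Poly(A) RNA of 13 Neuro2a libraries was measured by the submitters. The authors deposited FPKM per Ensembl gene, in separate tables for the passages. The tools edgeR, DESeq2, StringTie, HISAT2 and cutadapt and the build mm10 are named per the submitters' processing notes; versions, the use of strand in counting, and how FPKM were scaled between libraries, are not given in the sources used here. Per the labels' protocols, libraries were strand-marked and RNA integrity numbers were above 7.0. Symbols and coordinates are of GRCm38 (GENCODE), promoters of RefSeq GRCm38.p6. The 1 gene that lacked a value in a library was dropped.

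Tests ran in R 4.3.3 with limma 3.58.1 (trend, equal weights) on log2(FPKM + 1), per passage, for genes at 1 FPKM or more in at least 3 of its libraries, two-sided, with Benjamini-Hochberg adjustment over all genes tested and a threshold of 0.05. The difference between passages was a contrast over 13 libraries. Fold changes include the added 1 FPKM and understate changes at low levels. The fit was tested on simulated data. Members and lists were chosen with earlier results of these data known. Members called in any comparison are given library by library; of each other list, up to 3 called genes with the largest changes are named, except 1 that is not reported here. Alternatives were other pseudocounts, filters, scalings and limma settings, a replicate block, a colon marker covariate and left-out libraries. Depth is unknown, so precision rests on the spread between libraries.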

Additional observations from a re-analysis of the deposited data

Results flagged for a closer look

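Stc2 was flagged because 1 passage 1 experimental library stood apart from the other 3. It was at 2.53, 2.57, 3.12 and 2.55 FPKM in experimental libraries 1 to 4, so that the gap of library 3 to its nearest neighbour made up 0.935 of the whole range, over the 95% critical value of Dixon's test for 4 values. All 4 values were below the controls (4.67, 4.80 and 4.68 FPKM). It was the only one of 34 genes flagged in this way, and chance flags about 1 in 20 groups.

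The change between experimental and control libraries differed between the passages for 8 members, by limma's contrast. The log2 change at passage 6 minus that at passage 1 was 0.64 for Atf5, 0.64 for Cth, 0.60 for Slc7a3, 0.53 for Psph and 0.46 for Stc2. For Ppp1r15a it was -0.72, for Slc38a2 -0.63 and for Atf4 -0.52.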

How the results depend on the processing

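At passage 1, 2 members were called higher and 9 lower. The number higher was 6 with array weights, 1 with the colon marker covariate and 0 (2 at unadjusted p under 0.05, limma) without a filter or between the libraries with cartilage transcripts; the number lower was 5 with median-of-ratios scaling. At passage 6, 3 were called higher and 10 lower. The colon covariate gave 1 and 6, while 1 fit over both passages or no filter gave 6 lower. The share of all genes called moved with the setting. At passage 1 it was 40.3% with array weights, 28.6% with median-of-ratios scaling and 28.2% with the colon covariate. It was 9.88% without a filter and 8.02% between the cartilage libraries, against 30.4% in the fit described above. At passage 6 it was 8.20% with the colon covariate, 4.11% without a filter and 22.6% in 1 fit over both passages, against 19.8%. For the difference it was 24.5% with array weights, 3.52% without a filter and 6.52% between the cartilage libraries, against 14.7%. The difference between passages, with 8 members called, gave 2 without a filter, 14 with array weights and 5 between the cartilage libraries. The fit without passage 6 experimental libraries 2 and 3 leaves library 1 alone, so its counts are left out. There the passage 6 log2 change of Shmt2 was -0.19, against 0.02 with all libraries. The other settings run, the replicate block aside, kept these counts within 1.5 times. Leaving out 1 library at a time called 16.7 to 32.8% of all genes at passage 1, 5.47 to 34.6% at passage 6 and 8.98 to 19.65% for the difference. Among the members these fits gave 0 to 6 higher and 5 to 10 lower at passage 1, 1 to 5 and 5 to 11 at passage 6, and 3 to 10 for the difference. The high end of those called higher came without experimental library 2 at passage 1 and without library 1 at passage 6. The low end of those called lower came without any single control at passage 1 and without control 2 or 3 at passage 6, and that of the difference without passage 1 control 1, passage 6 control 2 or passage 6 experimental library 2; 0 higher at passage 1 came without control 1, control 2 or experimental library 4 (2 each at unadjusted p under 0.05, limma). The labels do not say whether replicate numbers pair the libraries. Same-numbered deviations correlated at 0.166, -0.192 and 0.239 at passage 1 and at -0.0664, -0.06 and 0.0332 at passage 6. Differently numbered ones lay at -0.354 to 0.263 at passage 1 and -0.0916 to 0.106 at passage 6. With so few libraries these values cannot settle whether the libraries were paired. With the replicate block 1 and 8 members were called at passage 1, 3 and 7 at passage 6, and 4 for the difference. Of all genes, 14.5%, 11.5% and 5.59% were called in these 3 fits. No scaling moved the median of all genes by more than 0.06 on the log2 scale. The cause of these shifts was not tested, except that no filter means more genes tested. Over the single genes, 155 refitted values lost a call and 51 gained one in the same direction. The total of 2304 refitted values includes members that had no call to lose. The share 155 of 2304 therefore understates how often a call ended.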

Other observations

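Cebpd and Cebpa, further C/EBP factor genes, were low in the libraries with and without Cebpb. Cebpd, an inducible factor, was at 1.24, 1.09, 0.782 and 0.73 FPKM in experimental libraries and 0.978, 0.979 and 1.14 FPKM in controls at passage 1, and at 0.845, 0.874 and 0.74 FPKM in experimental libraries and 0.775, 1.07 and 0.826 FPKM in controls at passage 6. Cebpa, a factor of liver and fat cells, was at most 0.425 FPKM in any library, including passage 6 experimental libraries 2 and 3 with their liver transcripts (0.394 and 0.237 FPKM). These genes were chosen after the Cebpb values had been seen.

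Summed FPKM of the 34 members were 1853, 1759, 2340 and 2303 in passage 1 experimental libraries 1 to 4 and 2074, 2106 and 2098 in controls, with the controls between libraries 1 and 2 and libraries 3 and 4. At passage 6 they were 2225, 2421 and 2398 in experimental libraries and 2274, 2260 and 2251 in controls, sums in which Slc7a5 had the largest share.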
